A study of Sus scrofa with 4 samples.

Results

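The enzymes that assemble triglyceride were followed through 4 stages of fat cell formation in cultured porcine preadipocytes. The set is a list of genes named for the reactions their enzymes carry out. It does not hold every enzyme of these reactions, as GPAT3, GPAT4, AGPAT4 and AGPAT5 are left out and given further on. It named 10 genes, GPAM, AGPAT1, AGPAT2, AGPAT3, LPIN1, LPIN2, LPIN3, DGAT1, DGAT2 and MOGAT1, and these were looked up by symbol among the 16192 protein-coding genes listed in all 4 libraries. A row was found for 9 of the 10, and MOGAT1 is not analysed here.

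The cells came from the subcutaneous fat of male Chinese Erhualian piglets less than 1 week old. D0 cells were confluent and had not yet received hormones. D2 cells had been kept from D0 in a cocktail of dexamethasone, 3-isobutyl-1-methylxanthine and insulin, D4 cells had then been kept in insulin alone, and D8 cells had been returned after D4 to growth medium. All stages shared a serum-containing base medium, and for each stage the RNA of 3 piglets was combined in equal parts into 1 library. Without replicates, a stage cannot be told apart from the library that stands for it, and differences between stages were not tested. Every interval given is a 95% interval for counting error only and holds nothing of the spread between piglets or cultures.

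Triglyceride is built on glycerol-3-phosphate by a chain of reactions in the endoplasmic reticulum and outer mitochondrial membrane. Glycerol-3-phosphate acyltransferases (GPAM, the mitochondrial form, and its relatives GPAT3 and GPAT4) add the first fatty acid and the AGPAT enzymes add the next to give phosphatidic acid, which the lipins (LPIN1, LPIN2 and LPIN3) dephosphorylate to diacylglycerol. DGAT1 and DGAT2, which are unrelated in sequence, attach the last fatty acid, and the product fills the lipid droplet that defines a mature adipocyte. Phosphatidic acid and diacylglycerol are also the branch points from which membrane phospholipids are made.

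Levels are given as FPKM, a fragment count divided by transcript length in kilobases and by library size. Comparisons between genes, such as shares and orders of level, therefore depend on the length used for each gene. The counting intervals hold nothing of any error in those lengths. The reads behind each value were recovered from the deposited FPKM, and the 4 library totals ranged from 54128151 (D8) to 75387428 (D0). Markers of adipocytes (8 of 8 with a row) summed to FPKM of 122, 484, 1715 and 2066 at D0, D2, D4 and D8, and 6, 6, 7 and 7 of them had FPKM of at least 1. From D0 to D4, 7 of these 8 went up in level, but from D4 to D8 only 3 went up and 5 went down, so that the higher sum at D8 rests on FABP4 (853 and 1557) and CIDEC (5.01 and 54.6). Markers of preadipocytes or fibroblasts (6 of 7 with a row) summed to 1097, 2144, 2847 and 2219. Of that sum COL3A1 made up 491, 1286, 2058 and 1624, and 4 of the 6 markers were lower at D8 than at D0. Endothelial markers summed to at most 2.59 and leukocyte markers to at most 8.81 in any library. PECAM1 made up most of the endothelial sum, with FPKM of 2.56, 1.14, 1.70 and 1.87, while CDH5 and VWF were listed at 0 in 3 libraries each. CD14 made up most of the leukocyte sum, with FPKM of 3.14, 5.64, 7.54 and 2.78. Of the 4 skeletal muscle markers, 1 had a row, and its FPKM was at most 0.0269. Because these are whole cultures, a change in the share of cells that express a gene cannot be told apart from a change in its RNA per cell.

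Most of these enzymes had their highest level at D4. That was so for 7 of 9, namely GPAM, AGPAT1, LPIN1, LPIN2, LPIN3, DGAT1 and DGAT2, while 37.3% of the 9191 reliably expressed protein-coding genes were highest at D4. A gene was called reliably expressed where 3 or more libraries had FPKM of at least 1. LPIN1, among the 7, falls short of this, so the 7 of 9 and the 37.3% do not rest on the same filter. Both are for FPKM as deposited. LPIN3 differed little between D2 and D4 and was highest at D2 after rescaling by the median ratio. AGPAT2 was highest at D8 and AGPAT3 at D0. The FPKM of the 9 genes summed to 28.9, 38.5, 97.8 and 82.9 at D0, D2, D4 and D8. DGAT2 held 0.527% of that sum, 26.3%, 59.0% and 56.8% at D0, D2, D4 and D8, and without it the sums were 28.8, 28.4, 40.1 and 35.8. These shares hold for the 9 listed genes only. GPAT4, which is not among them, had FPKM of 20.02, 30.1, 58.8 and 22.6. It was above DGAT2 at D0 and D2, and at D4 their intervals overlapped.

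**Figure D1:**
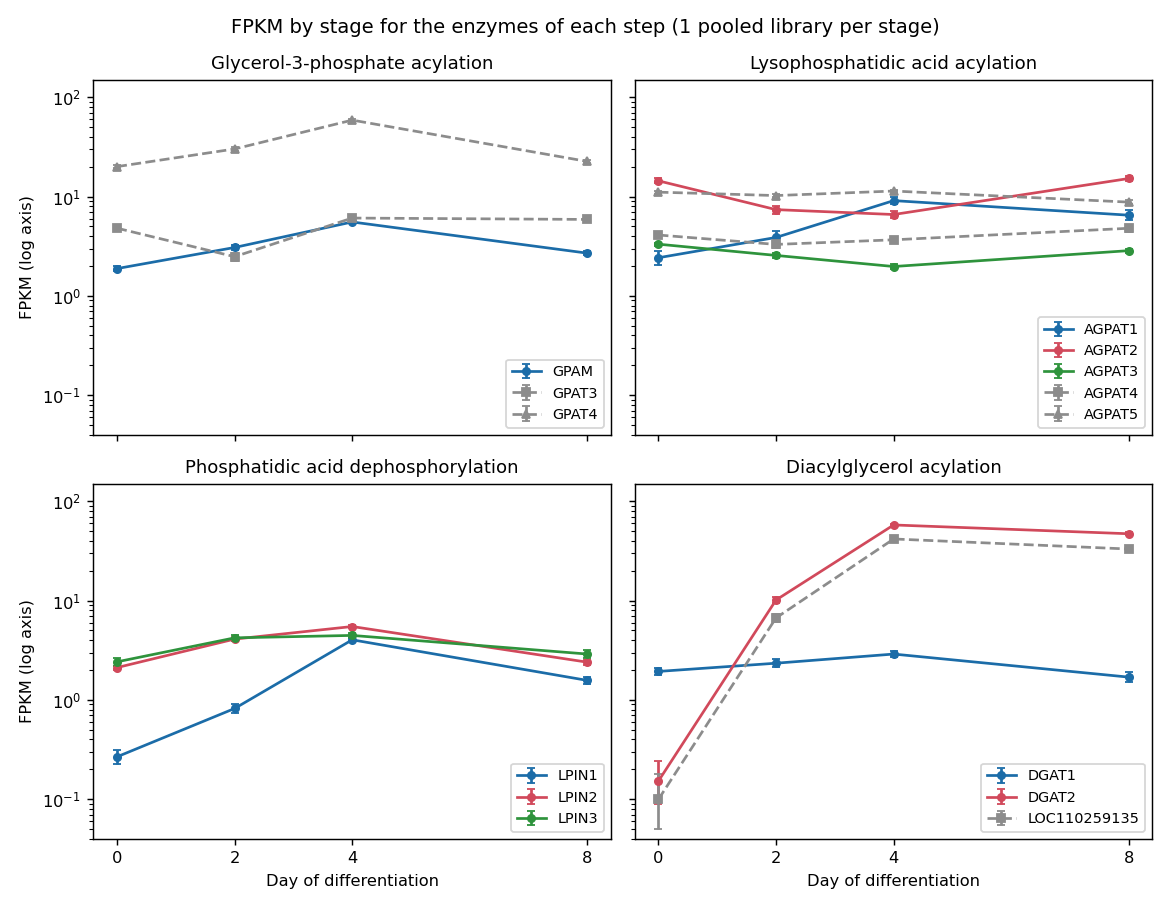
FPKM of each enzyme (vertical axis, log scale) at D0, D2, D4 and D8 (horizontal axis), with 1 panel per step of the pathway, 1 point per library and bars for 95% counting intervals. DGAT2 goes from 0.152 to 57.7 between D0 and D4, while DGAT1 stays between 1.70 and 2.90.

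DGAT2, the acyltransferase of the last step that is most closely tied to newly made fatty acids, went from the lowest level of the 9 genes at D0 to the highest at D2, D4 and D8. Its FPKM was 0.152 at D0 (17 reads, interval 0.089 to 0.244), 10.1 at D2 (825 reads), 57.7 at D4 (6354 reads) and then 47.1 at D8 (3771 reads). The D2 level was 66.5-fold above D0 (41.3 to 115), and the D4 level was 5.70-fold above D2 (5.30 to 6.13). D4 was 379-fold above D0 (236 to 651), with the width of that interval set by the 17 reads at D0. Between D4 and D8 the level was 1.23-fold lower (1.18 to 1.28), so that D8 remained 309-fold above D0 (193 to 531). That D8 to D4 difference depended on scaling, with a log2 ratio of -0.29 as deposited and -0.08 after rescaling by the median ratio. DGAT2 lies on chromosome 9 of the pig assembly Sscrofa11.1, from 10032163 to 10066082 on the plus strand.

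Another row raises a doubt about the DGAT2 values. A protein-coding row named LOC110259135, on an unplaced scaffold, spans 34031 bases against 33920 for DGAT2 and had FPKM of 0.0997, 6.70, 41.7 and 33.0. These values were 0.654, 0.660, 0.723 and 0.702 of those of DGAT2 in the same libraries. What LOC110259135 encodes is not given in the tables used here, and whether it is another copy of DGAT2 that shares reads with it was not tested. Added together, the pair had FPKM of 0.252, 16.8, 99.5 and 80.1, and D4 vs D0 then gave a log2 ratio of 8.57 in place of 8.47.

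DGAT1, the other enzyme of the last step, is an acyltransferase of the endoplasmic reticulum that also re-esterifies fatty acids released from stored fat. Its FPKM was 1.94, 2.34, 2.90 and 1.70 at D0, D2, D4 and D8, from 469, 414, 692 and 295 reads. D4 was 1.496-fold above D0 (1.33 to 1.69) and D8 was 1.71-fold below D4 (1.49 to 1.96), while the interval of the D8 to D0 ratio, 0.755 to 1.02, included 1. DGAT1 lies on chromosome 4 (452890 to 463665, plus strand) and overlaps HSF1 on the opposite strand by 135 bases. HSF1 had FPKM of 1.15, 0.733, 1.79 and 0.705, and the kit used marks strand, but whether the counting used it is not given in the sources used here.

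Between the enzymes of the last step the order of levels turned over. At D0, DGAT1 was 12.7-fold above DGAT2 (7.85 to 22.0). At D2, DGAT2 was 4.33-fold above DGAT1 (3.84 to 4.88), at D4 it was 19.9-fold above (18.4 to 21.6) and at D8 27.8-fold above (24.7 to 31.4). As a share of their summed FPKM, DGAT2 made up 7.30% at D0 (4.35 to 11.3), 81.2% at D2 (79.3 to 83.0), 95.2% at D4 (94.9 to 95.6) and then 96.5% at D8 (96.1 to 96.9). With LOC110259135 counted as DGAT2, the shares were 11.5%, 87.8%, 97.2% and 97.9%. The DGAT2 share was thus above that of DGAT1 at D2, D4 and D8 with or without that row. The lengths behind FPKM were 1480 bases for DGAT2 and 3214 for DGAT1, and the order in reads was the same in every library.

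**Figure D2:**
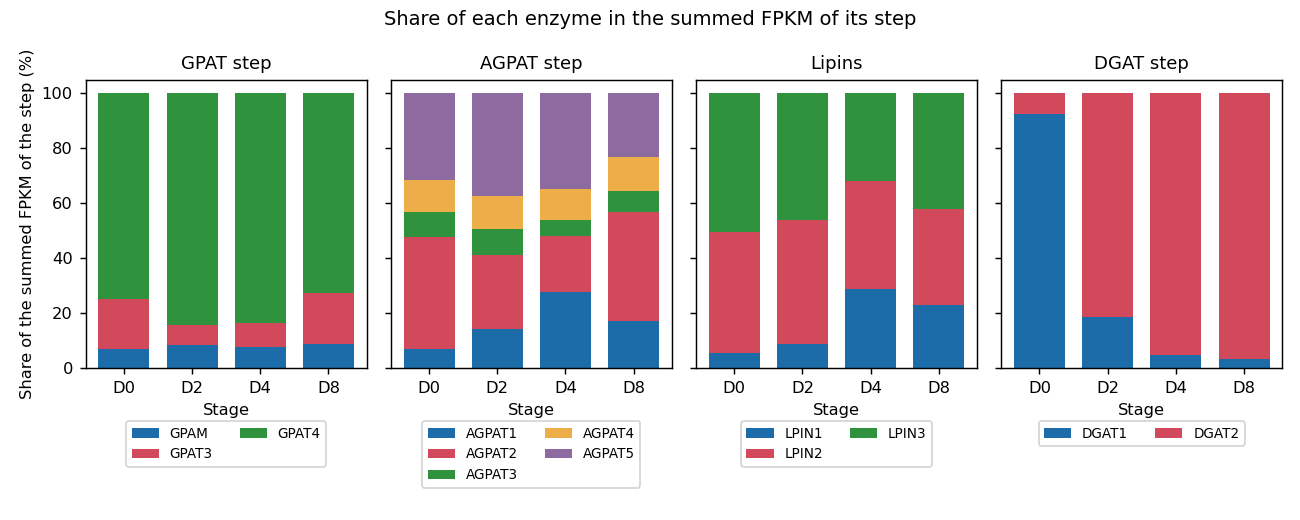
Share of each enzyme in the summed FPKM of its step (vertical axis, percent, from 0) at D0, D2, D4 and D8 (horizontal axis), with 1 panel per step and 1 stacked bar per library. In the DGAT panel DGAT2 goes from 7.30% at D0 to 96.5% at D8, and in the lipin panel LPIN1 goes from 5.57% at D0 to 28.8% at D4.

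LPIN1, the lipin that predominates in adipose tissue and also acts as a transcriptional coactivator, had the next widest range. Its FPKM was 0.267 at D0 (169 reads), 0.820 at D2 (378 reads), 4.03 at D4 (2512 reads) and then 1.57 at D8 (713 reads). The level at D2 was 3.07-fold above D0 (2.55 to 3.70), and D4 was 4.91-fold above D2 (4.41 to 5.49) and 15.1-fold above D0 (12.9 to 17.7). D8 was below D4 at 0.390 of its level, and it was still 5.88-fold above D0 (4.96 to 6.99). With FPKM of at least 1 in only 2 libraries, LPIN1 is not among the reliably expressed genes and is left out of the counts of changed genes given further on. It lies on chromosome 3 from 124940557 to 125074137 on the minus strand.

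LPIN2 and LPIN3, the lipins usually linked to liver and to other tissues, were already present at D0 and moved less. LPIN2 (chromosome 6, 103625725 to 103728151, plus strand) had FPKM of 2.12, 4.10, 5.48 and 2.40 from 1705, 2408, 4359 and 1387 reads. Its D4 level was 2.59-fold above D0 (2.45 to 2.74), and by D8 it was 2.29-fold below D4 (2.15 to 2.43). LPIN3 (chromosome 17, 43993710 to 44006188, plus strand) had FPKM of 2.42, 4.22, 4.46 and 2.90 from 522, 664, 950 and 449 reads. LPIN3 reached its upper level already at D2, 1.74-fold above D0 (1.55 to 1.96). The D4 to D2 ratio of 1.06 (0.957 to 1.17) had an interval that included 1, and its direction turned when the libraries were rescaled by their median ratio (log2 of 0.08 as deposited, -0.01 rescaled).

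Together the lipins had summed FPKM of 4.80, 9.13, 14.0 and 6.86. LPIN1 made up 5.57% of that sum, 8.98%, 28.8% and 22.9% at D0, D2, D4 and D8. LPIN3 was the largest share at D0, with 50.4%, and LPIN2 at D4, with 39.2%. The lengths behind FPKM were 8384 bases for LPIN1, 10691 for LPIN2 and 2864 for LPIN3, and in reads LPIN2 was above LPIN3 at D0. All 3 lipins were lower at D8 than at D4, and LPIN1 had the largest D8 to D0 ratio of the 3.

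GPAM, which starts the chain at the mitochondrial membrane, was also highest at D4. Its FPKM was 1.88, 3.07, 5.55 and 2.69 at D0, D2, D4 and D8, from 1339, 1593, 3891 and 1374 reads. D4 was 2.95-fold above D0 (2.77 to 3.14), and D8 was 2.06-fold below D4 (1.94 to 2.19) and 1.43-fold above D0. GPAM lies on chromosome 14 from 122538600 to 122582390 on the minus strand.

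GPAM was a minor part of its step by FPKM. GPAT4, the endoplasmic reticulum form, had FPKM of 20.02, 30.1, 58.8 and 22.6, and GPAT3 had 4.81, 2.48, 6.08 and 5.88. The GPAM share of the 3 genes' sum was 7.05%, 8.61%, 7.88% and 8.65% at D0, D2, D4 and D8. That share depends on the lengths behind FPKM, 9431 bases for GPAM, 3262 for GPAT3 and 1559 for GPAT4. In reads, GPAM, GPAT3 and GPAT4 had 1339, 1182 and 2353 at D0, and 3891, 1474 and 6820 at D4. The D4 to D0 ratios of GPAM and GPAT4, 2.95 (2.77 to 3.14) and 2.94 (2.80 to 3.08), had overlapping intervals. GPAT3 had a different course, being 1.94-fold lower at D2 than at D0 (1.74 to 2.17) and 2.45-fold higher at D4 than at D2 (2.20 to 2.73).

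Within the AGPAT step, AGPAT1 was highest at D4, whereas AGPAT2 and AGPAT3 were lowest there. AGPAT1 (chromosome 7, 24205930 to 24208430, minus strand), a widely expressed acyltransferase, had FPKM of 2.42, 3.88, 9.10 and 6.49 from 161, 188, 597 and 310 reads. It was 3.76-fold above D0 at D4 (3.15 to 4.50) and 2.68-fold above D0 at D8 (2.21 to 3.27). After DGAT2 and LPIN1, it had the largest D8 to D0 ratio of the 9 genes.

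AGPAT2, the form whose loss causes congenital generalized lipodystrophy in people, went the other way in the first 4 days. Its FPKM was 14.4, 7.39, 6.60 and 15.2 at D0, D2, D4 and D8, from 1302, 487, 588 and 987 reads. The D2 level was 1.95-fold below D0 (1.76 to 2.17) and the D4 level 2.18-fold below D0 (1.98 to 2.41). D8 was 2.31-fold above D4 (2.08 to 2.56), which brought it back to 1.06 of D0 (0.971 to 1.15). AGPAT2 was thus high at D0 and D8 and low at D2 and D4. ACTA2, a smooth muscle marker that myofibroblasts also express, was high in the same libraries, with FPKM of 2907, 324, 225 and 2762. It made up most of the sum of the 4 smooth muscle markers (3438, 366, 232 and 2823), of which the other 3 were all below their D0 level at D8 (DES 436 and 35.7, CNN1 94.3 and 24.2, MYH11 0.633 and 0.289). The part of such cells in the AGPAT2 values was not tested. AGPAT2 lies on an unplaced scaffold from 1095782 to 1106471 on the plus strand.

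AGPAT3 (chromosome 13, 206803219 to 206906363, plus strand), which prefers polyunsaturated fatty acids, had its lowest level at D4. Its FPKM was 3.32, 2.56, 1.98 and 2.86 from 2687, 1510, 1579 and 1661 reads, and D4 was 1.68-fold below D0 (1.58 to 1.79). AGPAT4 and AGPAT5, the remaining AGPAT genes, had FPKM of 3.30 to 4.80 and 8.79 to 11.4 over the 4 libraries. The 5 AGPAT genes summed to 35.3, 27.4, 32.7 and 38.1. Within that sum AGPAT1 made up 6.86%, 14.2%, 27.8% and 17.0%, and AGPAT2 made up 40.8%, 27.0%, 20.2% and 39.9%. At D4, AGPAT1 was above AGPAT2, and at D0, D2 and D8 it was below. The lengths behind FPKM were 882 bases for AGPAT1, 1199 for AGPAT2 and 10747 for AGPAT3, which had the most reads of these genes in every library.

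The order of the 9 levels within a library differed between stages. At D0, AGPAT2 stood first and AGPAT3 next, followed by AGPAT1, LPIN3, LPIN2, DGAT1 and GPAM, each of which overlapped its neighbour in that order within the counting intervals, and LPIN1 and DGAT2 came last with overlapping intervals. At D2, DGAT2 and AGPAT2 led, LPIN3, LPIN2 and AGPAT1 overlapped in that order, and LPIN1 was last. At D4, DGAT2, AGPAT1 and AGPAT2 led, GPAM overlapped LPIN2, LPIN3 overlapped LPIN1, and DGAT1 and AGPAT3 were last. At D8, DGAT2, AGPAT2 and AGPAT1 led, LPIN3, AGPAT3 and GPAM overlapped, and DGAT1 and LPIN1 were last with overlapping intervals.

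**Figure D3:**
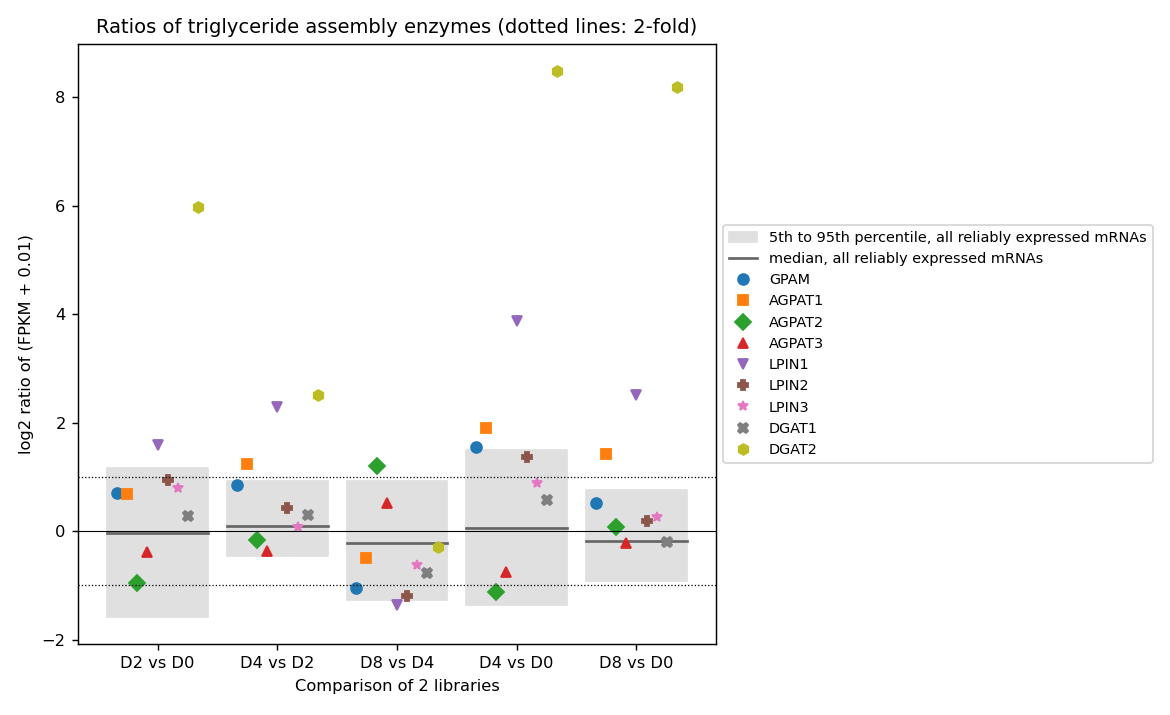
Log2 ratio of FPKM + 0.01 (vertical axis) for the 9 enzymes in the 5 comparisons of stages (horizontal axis), with 1 point per enzyme and dotted lines at 2-fold in either direction. Grey bands span the 5th to 95th percentile of all reliably expressed protein-coding genes, and a grey line marks their median. For D4 vs D0, DGAT2 lies at 8.47 and LPIN1 at 3.86, and AGPAT2 and AGPAT3 lie below 0.

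To set these genes against the rest of the transcriptome, a reliably expressed gene was counted as changed where the ratio on log2(FPKM + 0.01) was at least 2-fold. Of the 9 enzymes, 8 were reliably expressed. DGAT2 passed this filter only through D2, D4 and D8, where it was high, so its place in the counts against D0 depends on those libraries. For D2 vs D0, 1 of 8 was higher (DGAT2) and 0 were lower, where 6.67% of all reliably expressed protein-coding genes were higher and 10.1% lower. Just short of the threshold were LPIN2 (log2 ratio 0.95) and AGPAT2 (-0.96). The median log2 ratio was 0.69 over the 8 enzymes and -0.03 over all 9191 genes. For D4 vs D2, AGPAT1 and DGAT2 were higher and 0 lower, where the shares of all genes were 4.24% and 0.838%, and the medians were 0.36 and 0.09.

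For D8 vs D4, 1 enzyme was higher (AGPAT2) and 2 were lower (GPAM and LPIN2), where 4.43% of all genes were higher and 10.1% lower. The median was -0.55 over the enzymes and -0.21 over all genes. GPAM passed narrowly, at a log2 ratio of -1.04. Rescaling the libraries by their median ratio moved all D8 vs D4 ratios by 0.21 and left neither GPAM nor LPIN2 past 2-fold. For D4 vs D0, AGPAT1, DGAT2, GPAM and LPIN2 were higher and AGPAT2 was lower, where the shares of all genes were 10.4% and 8.81%, and the medians were 1.13 and 0.06. For D8 vs D0, AGPAT1 and DGAT2 were higher and 0 were lower, where the shares of all genes were 3.6% and 3.68%, and the medians were 0.22 and -0.18. These comparisons share libraries, so their counts are not independent of each other.

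The other genes of glycerolipid synthesis are given by count. Of 35 named, 31 had a row and 24 were reliably expressed. For D2 vs D0, 6 of the 24 were at least 2-fold higher and 0 lower, and for D4 vs D2 these counts were 3 and 0. For D8 vs D4 they were 0 and 8, for D4 vs D0 they were 9 and 0, and for D8 vs D0 they were 3 and 0. The shares of all genes given above apply here too, and several are so low (0.838% lower for D4 vs D2) that a count of 0 among 24 genes says little. Their median log2 ratios were 0.44, 0.20, -0.47, 0.49 and -0.06 in the same order.

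The genes named next were chosen after their values were seen. GPD1, which makes glycerol-3-phosphate, the backbone that the chain starts from, had FPKM of 0.787, 5.08, 15.4 and 15.9. Its D8 level was 20.2-fold above D0 (17.2 to 23.9) and 1.03-fold above D4 (0.979 to 1.09). CDS2, which draws phosphatidic acid toward phosphatidylinositol, had FPKM of 3.29, 11.2, 22.5 and 6.82. It was 6.83-fold above D0 at D4 (6.53 to 7.15) and 3.30-fold below D4 at D8 (3.17 to 3.42).

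LPCAT3, which builds polyunsaturated phosphatidylcholine, had FPKM of 1.76, 7.30, 13.6 and 8.70, and LPCAT2, which remodels phosphatidylcholine and makes platelet-activating factor, had 5.40, 23.7, 16.1 and 3.47. PLPP3, a lipid phosphate phosphatase, had FPKM of 6.30, 47.6, 44.9 and 10.8. FITM2, which helps lipid droplets bud, had 5.61, 16.4, 23.9 and 7.63, and BSCL2, the seipin that shapes droplets at their origin, had 4.52, 8.21, 9.50 and 3.61. FITM2 and BSCL2 were 3.13-fold (2.78 to 3.54) and 2.63-fold (2.40 to 2.90) lower at D8 than at D4.

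**Figure D4:**
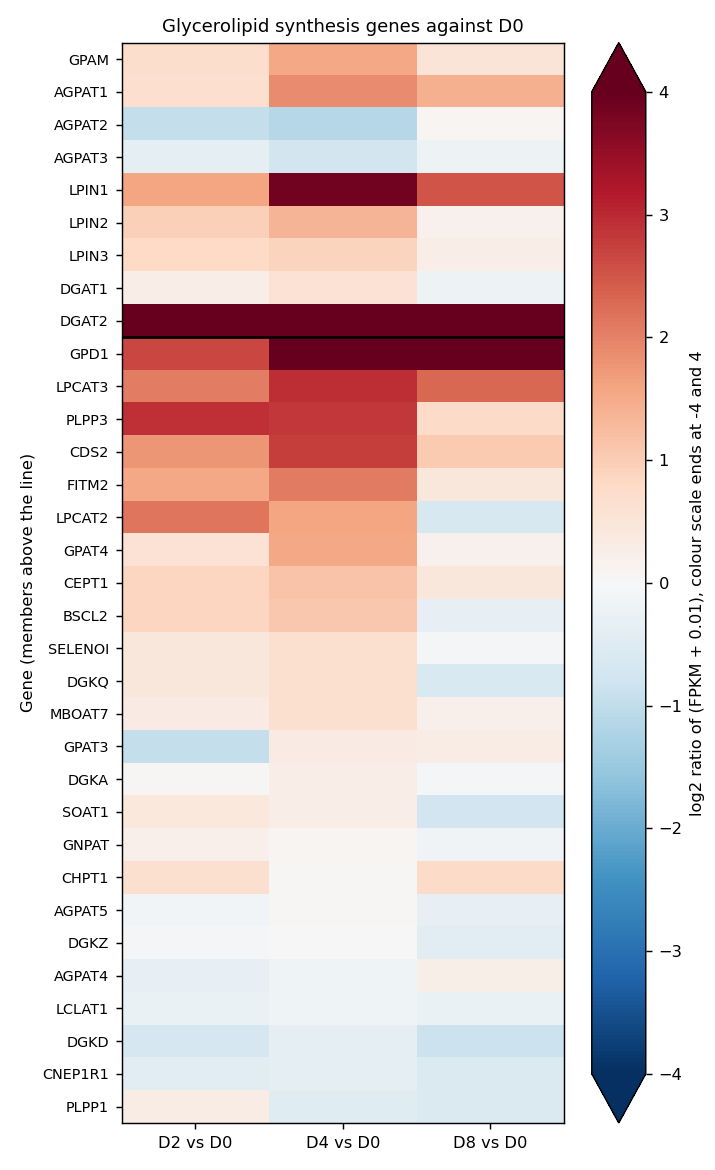
Log2 ratio of FPKM + 0.01 against D0 (colour, with larger changes cut off at the ends of the scale) at D2, D4 and D8 (columns). Rows are the 9 enzymes, above the line, and the reliably expressed other glycerolipid genes. GPAM, AGPAT1, LPIN1, LPIN2, LPIN3 and DGAT2 lie above D0 in every column, as do GPD1 and several other glycerolipid genes. AGPAT2 and AGPAT3 have their lowest ratio in the D4 column.

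Circular RNA was listed for 1 of the 9 genes. A circRNA is a ring joined at a back-splice, measured here in SRPBM, its junction reads scaled by all mapped reads. Of 8623 circRNAs, ssc_circ_0001583 lay within LPIN1 (chromosome 3, 124965487 to 124967755, minus strand). It was listed at 0 at D0 and D2, and had SRPBM of 59.4 at D4, from 10 junction reads (4.80 to 18.4), and 50.4 at D8, from 6 junction reads (2.20 to 13.1). A count of 0 allows up to 19.3 SRPBM at D0 and 21.8 at D2 (3 reads). LPIN1 mRNA was also higher at D4 and D8 than at D0 and D2. The intervals of the D4 and D8 read numbers overlapped.

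Long non-coding RNAs were looked for within 50 kb of each enzyme gene. There were 12, near 5 of the 9 genes, and 3 of them reached FPKM of 1 in any library. LOC100512700, 31.8 kb from AGPAT2, had FPKM of 12.8, 22.8, 19.4 and 17.8 and so did not share the dip of AGPAT2 at D2 and D4. MSTRG.84591, 18.6 kb from DGAT2 on the opposite strand, had FPKM of 0, 0, 0.353 and 1.13 from 0, 0, 44 and 103 reads. MSTRG.84598, 24.7 kb from DGAT2 and also on the opposite strand, had 0.00466, 0, 0.232 and 0.922 from 1, 0, 49 and 142 reads. Both were higher at D8 than at D4, whereas DGAT2 was highest at D4. MSTRG.69385, 2.60 kb from AGPAT1, had 0.151, 0.845, 1.10 and 0.256 from 14, 57, 100 and 17 reads. It lay on the same strand as AGPAT1.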

How the data were processed

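Pooled RNA, 1 library per stage, was depleted of ribosomal RNA and sequenced with a strand-marking kit. Per the labels and the study's methods, the authors aligned reads with HISAT2 2.0.5 to Sscrofa11.1 and deposited FPKM for all gene biotypes but circRNAs. For circRNAs, called with BWA-MEM and CIRI from at least 2 junction reads, the same deposited column holds SRPBM. The counting tool and annotation release are not given in the sources used here.

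Reads behind FPKM were recovered from the FPKM values alone, by finding each library's relative depth from low values and then whole-base gene lengths. This worked for 19926 of 22944 genes (86.8%), including all 9 enzymes, and was tested on simulated data. Levels have exact Poisson 95% intervals, and ratios and shares have intervals from the exact binomial (Clopper-Pearson). Ratios in the counts of changed genes used log2(FPKM + 0.01), which understates changes of low genes. The other ratios are of FPKM. No test across stages was possible with 1 library each. Only reference names and positions in the files were used, and no sequence was read.

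The enzymes, gene lists and markers were chosen with earlier results of these data known. Named beyond the enzymes were the other enzymes of their steps, 7 glycerolipid genes chosen after their values were seen, and, for 4 enzymes, the 3 genes closest in profile. Alternatives covered the pseudocount (0.1 and 1), 2 rescalings, no filter on low FPKM and a ratio of 1.5. Computation used Python 3.11.15, numpy 2.4.6, pandas 2.3.3, scipy 1.17.1 and matplotlib 3.10.9.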

Additional observations from a re-analysis of the deposited data

How the results depend on the processing

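Of 60 recomputed counts of enzymes past the ratio threshold, 52 stayed within 1.5 times the reported count. For D2 vs D0, the number higher was 1 as reported, 3 when all libraries were scaled to the same protein-coding sum (LPIN2 through its ratio, and LPIN1 because its rescaled level passed the filter on low FPKM), 2 without the filter on low FPKM and 5 at a ratio of 1.5. The number lower was 0 as reported and 1 at a ratio of 1.5. For D8 vs D4, the number lower was 2 as reported, 0 with a pseudocount of 1, 0 with median-ratio scaling and 4 at a ratio of 1.5. For D4 vs D0, the number lower was 1 as reported and 2 at a ratio of 1.5. Among 185 recomputed log2 ratios of single enzymes, 1 changed sign, that of LPIN3 for D4 vs D2. A further measure was the distance from the middle of the counting interval to its end, and 47 moved by more than that. A pseudocount of 1 gave a DGAT2 log2 ratio of 5.67 for D4 vs D0 in place of 8.47, and 1.99 in place of 3.86 for LPIN1. Adding LOC110259135 to DGAT2, an alternative chosen after seeing the data, moved the DGAT2 share to 11.5%, 87.8%, 97.2% and 97.9% at D0, D2, D4 and D8. No library could be left out, since each stage has 1. No paired analysis was possible because each stage has 1 library and no result comes from a test. The 17 reads of DGAT2 at D0 limit the precision of every DGAT2 ratio against D0.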

Other observations

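For 4 enzymes, the reliably expressed protein-coding genes with the most similar course over the 4 libraries were looked up. Likeness was the largest difference, over the libraries, between the log2 profiles of 2 genes after each was centred on its own mean. With 4 points and 9191 genes, close profiles arise readily, so these are descriptions only.

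AGPAT2 had the closest match to a well-known gene. TSPO, the cholesterol-binding protein of the outer mitochondrial membrane, had FPKM of 145, 73.2, 66.4 and 153 at D0, D2, D4 and D8 and differed from AGPAT2 by at most 0.02. SQOR, the mitochondrial sulfide quinone oxidoreductase, had FPKM of 28.2, 13.8, 12.3 and 27.6 and differed by at most 0.06. PEF1 differed by at most 0.09. These genes were, like AGPAT2, high at D0 and D8 and low at D2 and D4.

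For DGAT2, LOC110259135 came first with a difference of at most 0.07. THRSP, a nuclear protein tied to fatty acid synthesis, had FPKM of 0.908, 55.0, 182 and 138 and differed by at most 0.48, and ADH1C, an alcohol dehydrogenase, had FPKM of 0.0264, 2.82, 19.2 and 27.7 and differed by at most 0.82.

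For LPIN1, PC, the pyruvate carboxylase that feeds oxaloacetate to fatty acid synthesis, had FPKM of 2.17, 9.17, 30.4 and 15.4 and differed by at most 0.31. ELOVL7, a fatty acid elongase, had FPKM of 0.956, 3.45, 11.4 and 4.73 and differed by at most 0.32, and KAZALD1 differed by at most 0.36. For GPAM, B4GALT5, a galactosyltransferase, had FPKM of 2.73, 4.35, 7.99 and 3.92 and differed by at most 0.02, and MAP3K1 differed by at most 0.08. A row named rna78613 stood between them with at most 0.08, and although the files list it as protein-coding it is only 71 bases long.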
